A study of Mus musculus with 80 samples.

Results

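Cidea and 9 further genes of lipid droplets and fatty acid use were followed in mouse embryonic stem cells (ESCs) of the wild-type line E14. The genes were picked by symbol, 10 of 25965 rows of the expression table, because Cidea was known to rise strongly in 2i. The others are Cideb, Plin2, Plin3, Dgat1, Dgat2, Pnpla2, Fabp3, Fabp5 and Cpt1a. Together they overlap 96 of 1026637 bins of 2 kb in which dimethylated lysine 9 of histone H3 (H3K9me2) was measured. RNA-seq covered 12 E14 libraries, 3 each from serum medium with LIF and from 6, 24 and 72 h after the switch to 2i. The 2i medium is serum-free N2B27 with LIF, the MEK inhibitor PD0325901 and the GSK3 inhibitor CHIR99021. ChIP-seq covered 9 libraries, with 2 H3K9me2-bound fractions and 1 input each from serum, from 24 h in 2i and from cells kept long-term in 2i (LT2i). All 3 time points in 2i were compared with the same 3 serum libraries, so these comparisons are not independent of each other.

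Cells store neutral lipid as triglyceride and sterol ester in droplets that bud from the endoplasmic reticulum and are covered by a single layer of phospholipid with coat proteins. Fatty acids enter the store through acyltransferases and leave it through lipases, after which binding proteins carry them and the carnitine shuttle takes them into mitochondria for oxidation. Cidea is best known from brown fat, where it joins droplets into larger ones.

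RNA values are the log2 reads of each gene as deposited, with length and depth corrected for, so levels of different genes may be set side by side. The underlying read counts were recovered from these values and are given where they show the depth. Libraries held 11458791 to 16995811 reads in genes, and bound ChIP libraries 14396552 to 19279328 reads in bins. All 8 ESC markers examined, among them Pou5f1, Sox2 and Nanog, had reads in every library. Their summed linear level (2 to the power of the log2 value) went from 885 to 952 in serum to 1167 to 1456 at 72 h without overlap. The mean log2 values of Zfp42 and Pou5f1 were lower at 72 h than in serum. Of 13 markers of white and brown adipocytes, 7 had no read in serum and 6 none at 72 h, and Adipoq, Fabp4 and Plin1 never passed 2 reads. Adrb3 had reads in every library, up to 890, with a mean log2 value of 3.06 in serum and 3.35 at 72 h. The summed adipocyte level went from 13.0 to 15.0045 in serum to 48.1 to 68.7 at 72 h. Most of the rise came from Cox7a1, a subunit of mitochondrial cytochrome c oxidase, whose mean log2 value went from 2.41 to 5.46. The part of this in the results was not tested. The summed level of 5 fibroblast markers went from 7.57 to 9.72 in serum to 4.40 to 4.90 at 72 h without overlap, with Lum at 0 reads in every library and Col1a1 at a mean log2 value of 2.49 in serum and 1.53 at 72 h. That of 7 primitive endoderm markers went from 4.66 to 4.95 in serum to 3.804 to 4.61 at 72 h. Its members went both ways. Dab2 went from a mean log2 value of 0.90 in serum to -0.18 at 72 h, and Sox7 and Pdgfra were also lower. Gata4 went from -0.70 to 0.22, and Gata6, Sox17 and Foxa2 were also higher. The part of these in the results was not tested either. The labels do not say whether replicates came from separate cultures, while the study's text describes the replicates behind its expression data as biological. The p-values measure the spread between these libraries, which for the ChIP pairs may be technical, and in bulk RNA a change per cell cannot be told apart from a change in the share of cells.

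RefSeq promoter sequence (GRCm38.p6) was at hand for 6 of the 10 genes: Cideb, Plin2, Plin3, Pnpla2, Fabp3 and Cpt1a. Stretches are shown for Fabp3 and Plin2, since RNA of both rose in 2i and H3K9me2 over their bodies was lower in LT2i. They run from 250 bases before the start given in the RefSeq promoter table up to the longest span annotated for the gene, by RefSeq for Plin2 and in the expression table for Fabp3. The rest of the 250 bases lies within that span and is not shown. Both are written 5′ to 3′ on the strand of the gene, and hold no motif hit that would be in capitals. None is shown for Cpt1a, all of whose 250 bases lie within its RefSeq gene span.
Fabp3, chr4:130308488-130308594, plus strand: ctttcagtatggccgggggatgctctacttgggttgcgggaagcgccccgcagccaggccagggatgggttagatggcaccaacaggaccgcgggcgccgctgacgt
Plin2, chr4:86670218-86670309, minus strand: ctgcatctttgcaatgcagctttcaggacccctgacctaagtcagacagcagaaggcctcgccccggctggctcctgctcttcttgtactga
The whole 250 bases held 17 CG pairs in Fabp3, 6 in Plin2 and 14 in Cpt1a, against a median of 6 over 32851 RefSeq promoters. Motifs were searched on both strands in the 300 bases from 250 before to 50 after each start. The E-box CACGTG was found in Plin2, across its start, and in 7.15% of all promoters. The TATA box letters TATAAA were found in Cideb and in 13.6% of all promoters. The direct repeat that PPAR-RXR pairs bind (0.0396% of all promoters), the ESRR element TCAAGGTCA (0.423%) and the TCF element ATCAAAG (3.73%) were in none of the 6 windows.

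Cidea encodes a CIDE domain protein of the droplet surface that passes lipid from smaller to larger droplets. Its values chose this set, so they are described here with no test. Cidea had 4, 9 and 14 reads in the 3 serum libraries, equal to log2 values of -2.45, -1.01 and -0.93. At 6 h it had 163, 152 and 142 reads, or log2 values of 3.04, 2.83 and 2.67. All 6 h libraries lay above all serum libraries, by at least 12.1 times on the linear scale.
At 24 h Cidea had 245, 206 and 196 reads, and its log2 values of 3.63, 3.32 and 2.93 overlapped those of 6 h. At 72 h it had 808, 676 and 474 reads, with log2 values of 4.91, 4.97 and 4.41. These lay above every other library, and the lowest of them exceeded the highest serum value 40.3 times. On the log2 scale the mean change from serum came to 4.31 after 6 h, 4.76 after 24 h and 6.23 after 72 h. With 1 added to the linear values before the logarithm, which damps genes of few reads, they came to 2.56, 2.96 and 4.34. The changes without that addition ranked 3, 6 and 2 among the 12306 genes tested, so Cidea was among the largest rises without being the largest at any of the 3 times. Most of its log2 change was thus present at 6 h, and a further 1.47 was added between 24 and 72 h.

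**Figure D1:**
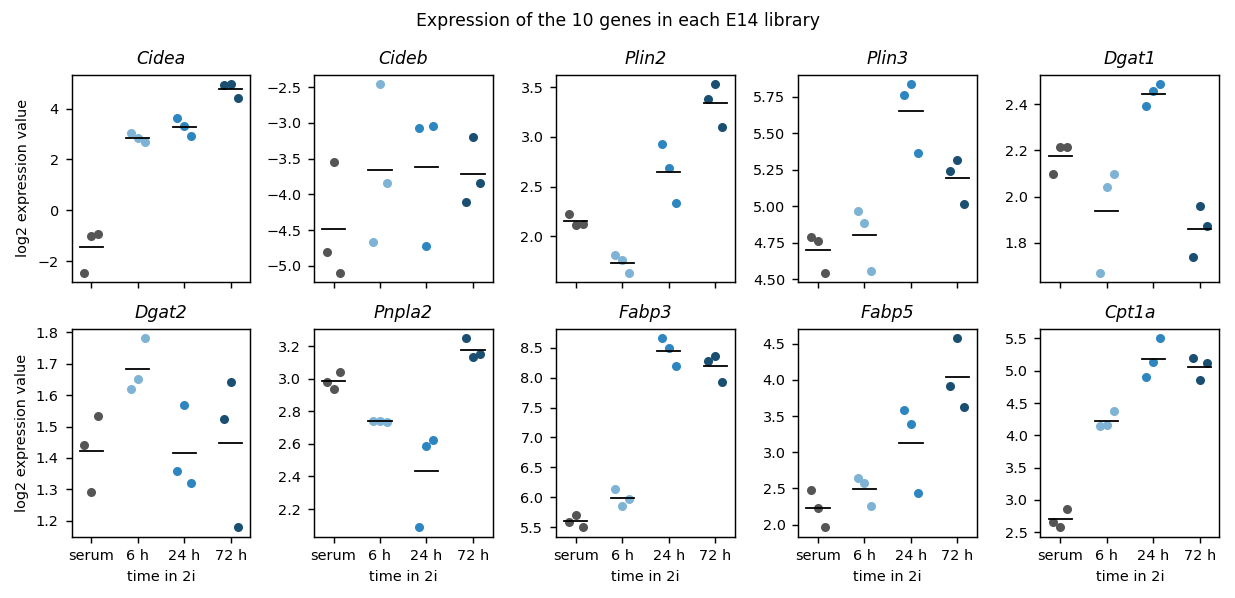
Log2 expression value (vertical axis, own scale per panel) of the 10 genes by group (serum, then 6, 24 and 72 h in 2i). Points are single libraries and lines group means of 3. Cidea lies between -2.45 and -0.93 in serum and between 4.41 and 4.97 at 72 h, and Cideb does not pass -2.46 in any library.

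The Cidea row spans chromosome 18, 67343564 to 67367794 on the plus strand (GRCm38), of which 1164 bases were counted. Its first 540 bases overlap B430212C06Rik on the minus strand. B430212C06Rik had 1, 2 and 1 reads in serum and 9, 5 and 4 at 72 h. Whether the counting used strand is not stated in the sources at hand, so reads in the shared bases cannot be assigned to either gene, and B430212C06Rik held far fewer reads than Cidea in every 2i library.

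Of the 10 other genes within 250 kb of Cidea, 9 passed the filter on low values. At 6 h limma called 0 of these 9 at an adjusted p under 0.05, 3 had an unadjusted p under 0.05, and limma-voom on the recovered reads also called 0, beside 15.6% of all genes tested. At 24 h 5 of the 9 were called, 3 higher and 2 lower, beside 63.3% of all genes. At 72 h 2 genes are described only, since the filter favoured their direction. Gnal, a G protein subunit, passed it through its 72 h libraries alone and went from a mean log2 value of -1.33 in serum to 0.58, and Slmo1, without a 72 h library above the filter, went from 0.51 to -0.44. Of the other 7 genes 3 were called at 72 h, 2 higher and 1 lower, beside 48.9% of the 11067 genes with a library above the filter in both groups (23.3% higher, 25.6% lower). Impa2, the gene before B430212C06Rik, rose by 1.09 (SE 0.13, adjusted p = 4.33e-05), and Tubb6, the gene after Cidea, had a change of 0.37 (SE 0.15, adjusted p = 0.0536). At 72 h limma-voom also called Tubb6, with 52.4% of all genes called in that fit and 52.2% in the main fit.

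Cideb, the liver member of the CIDE family, had between 1 and 5 reads in each of the 12 libraries. It did not pass the filter and was not tested, and its group ranges overlapped at every time. Its mean log2 values of -4.48 in serum and -3.72 at 72 h stand near the limit of detection. Cideb shares 1456 bases of its span with 2610027L16Rik on the plus strand, which had a mean log2 value of 3.62 in serum.

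The remaining 8 genes passed the filter, and the plot of changes from serum shows them side by side. At 6 h 1 of the 8 was called, Cpt1a, beside 15.6% of all genes (9.13% higher, 6.48% lower). With the replicate number as a block 3 were called, 2 higher and 1 lower, beside 2569 of 12306 genes (20.9%) in that fit. At 24 h 6 of the 8 were called, 5 higher and 1 lower, beside 63.3% of all genes (34.2% higher, 29.1% lower). With the block 7 were called at 24 h, beside 71.0%. At 72 h 6 were called, again 5 higher and 1 lower, beside 52.2% (25.7% higher, 26.5% lower). A count of 6 of 8 (75%) lies near the 63.3% at 24 h and above the 52.2% at 72 h, and the set as a whole was not tested. The median change of the 8 was 0.18, 0.70 and 0.84 at 6, 24 and 72 h, and that of all genes tested 0.01, 0.11 and -0.01. The same 8 genes showed groups without overlap with serum in 6, 6 and 7 cases, beside 44.4%, 64.7% and 63.5% of all genes.

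**Figure D2:**
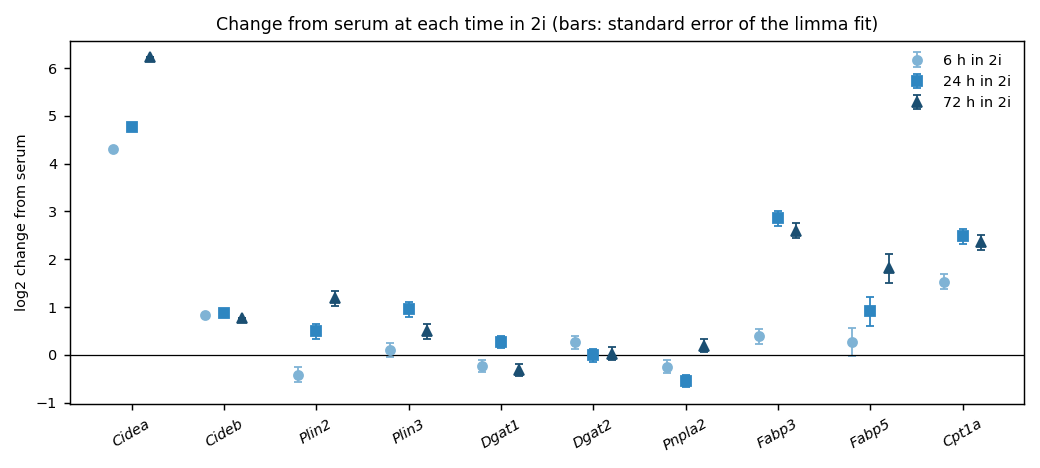
Log2 change from serum (vertical axis) at 6, 24 and 72 h in 2i for each gene, with bars for the standard error of the limma fit. Cidea and Cideb were not tested and carry no bars. Fabp3 and Cpt1a lie above 2 at 24 and 72 h, Plin2 passes from -0.42 to 1.18, and Dgat2 ends at 0.03.

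Perilipins coat the droplet and limit the access of lipases. Plin2, the coat protein of droplets in most cell types, had log2 values of 2.22, 2.12 and 2.12 in serum, 1.81, 1.76 and 1.64 at 6 h, 2.93, 2.69 and 2.33 at 24 h and 3.38, 3.53 and 3.10 at 72 h. The 6 h libraries lay below serum, and those of 24 and 72 h above it, with no overlap. Its 6 h value differed from serum by -0.42 (SE 0.15, limma adjusted p = 0.0958). It was called with the replicate number as a block (adjusted p = 0.0283), with only these 2 groups in the fit (adjusted p = 0.00800), with the span trend removed (adjusted p = 0.0367) and without 24 h replicate 3 (adjusted p = 0.0312).
Plin2 rose at 24 h by 0.49 (SE 0.15, adjusted p = 0.0151) and at 72 h by 1.18 (adjusted p = 6.59e-05). Without 24 h replicate 1 the change at 24 h was 0.36 and missed the threshold (adjusted p = 0.0617). The step from 24 to 72 h, 0.69, also passed (adjusted p = 0.00608).

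Plin3, a perilipin that moves from the cytosol onto new droplets, was at 4.79, 4.76 and 4.55 in serum and at 4.96, 4.88 and 4.56 at 6 h, so these groups overlapped. It reached 5.76, 5.84 and 5.36 at 24 h and came back to 5.24, 5.32 and 5.01 at 72 h. The rise at 24 h was 0.95 (SE 0.16, adjusted p = 0.000317). At 72 h it was 0.49 (SE 0.16, adjusted p = 0.0196), a call that was lost without serum replicate 3 (0.42, adjusted p = 0.0768), 72 h replicate 1 (0.47, adjusted p = 0.0604) or 72 h replicate 2 (0.43, adjusted p = 0.0664). From 24 to 72 h, the interval in which Plin2 was higher, Plin3 fell by 0.46 (adjusted p = 0.0421). That fall of Plin3 had an adjusted p of 0.0508 to 0.149 when any of 8 of the 12 libraries was left out, 0.0877 after the trend with gene span was removed, 0.0513 with quantile normalisation (-0.30) and 0.135 with only these 2 groups in the fit.

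Dgat1 and Dgat2 encode unrelated enzymes that add the last acyl chain of triglyceride. Dgat1 was at 2.10, 2.21 and 2.21 in serum, 1.67, 2.04 and 2.10 at 6 h, 2.39, 2.46 and 2.49 at 24 h and 1.74, 1.96 and 1.87 at 72 h. Each group in 2i lay wholly on 1 side of serum, above it at 24 h and below it at 6 and 72 h, yet by less than 1 log2 unit. The change was 0.27 at 24 h (SE 0.12, adjusted p = 0.0741) and -0.32 at 72 h (SE 0.12, adjusted p = 0.0471). The call at 72 h was lost without any 1 of 7 of the 12 libraries, with adjusted p-values of 0.0595 to 0.155, and with no filter on low values (adjusted p = 0.0591). With the replicate block the change at 24 h was called (adjusted p = 0.0291), and with the span trend removed it was 0.0301 (adjusted p = 0.857).
The fall between 24 and 72 h was clearer, 0.59 on the log2 scale, at an adjusted p of 0.00436.

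Dgat2 had log2 values of 1.29 to 1.53 in serum, 1.62 to 1.78 at 6 h, 1.32 to 1.57 at 24 h and 1.18 to 1.64 at 72 h. Its changes from serum were 0.26, -0.01 and 0.03 with a standard error of 0.14, and none of the 5 comparisons called it (adjusted p = 0.112 to 0.966).

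Pnpla2 encodes adipose triglyceride lipase (ATGL), the first lipase of droplet breakdown. It was at 2.98, 2.93 and 3.04 in serum and at 2.74, 2.74 and 2.73 at 6 h. At 24 h it was at 2.09, 2.59 and 2.62, and at 72 h at 3.25, 3.13 and 3.15. All 6 h and 24 h libraries lay below serum and all 72 h libraries above it. Pnpla2 fell at 24 h by 0.55 (SE 0.13, adjusted p = 0.00358), which is the 1 fall among the 6 calls at that time, and the change at 72 h was 0.19 (SE 0.13, adjusted p = 0.243). The rise from 24 to 72 h was 0.74 (adjusted p = 0.00159).

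Fabp3, the heart-type fatty acid binding protein of the cytosol, had the highest level per length of the 10 genes in every group. It had 740, 672 and 851 reads in serum, with log2 values of 5.58, 5.71 and 5.50, and 993, 875 and 984 reads at 6 h, with 6.14, 5.86 and 5.97. It reached 5638, 5283 and 5325 reads at 24 h and 5919, 5026 and 3870 at 72 h, where its log2 values were 8.66, 8.50 and 8.20 and then 8.29, 8.37 and 7.93. The 24 and 72 h libraries lay far above both earlier groups and overlapped each other. Fabp3 rose by 2.86 at 24 h (SE 0.16, adjusted p = 1.78e-07) and by 2.60 at 72 h (SE 0.16, adjusted p = 1.69e-07).
At 6 h its change was 0.39 (SE 0.16, adjusted p = 0.131), which was called with the replicate block (adjusted p = 0.0427), with quantile normalisation (adjusted p = 0.0211), with only these 2 groups in the fit (adjusted p = 0.0152) and with the span trend removed (adjusted p = 0.0185). From 6 to 24 h it rose by 2.46 (adjusted p = 1.93e-06), the step in which Cidea changed by 0.45.

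Fabp3 has a near-identical copy, Fabp3-ps1, a processed pseudogene on chromosome 10. Fabp3-ps1 had 303 to 423 reads in serum and 1816 to 2665 at 72 h, which was 41.8% to 49.7% of the Fabp3 reads in every library. Its change at 72 h was 2.62 (SE 0.15), within the error of that of Fabp3. How the counting split reads between the near-identical copies is not stated in the sources at hand, so the level of each is uncertain. Fabp3 also overlaps Gm10570 by 80 bases and Zcchc17 by 79, both on the minus strand.

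Fabp5, the epidermal fatty acid binding protein, was at 2.48, 2.23 and 1.96 in serum, 2.64, 2.57 and 2.26 at 6 h, 3.58, 3.38 and 2.43 at 24 h and 3.92, 4.57 and 3.62 at 72 h. Only the 72 h group lay clear of serum, and 24 h replicate 3 fell within the serum range. The spread at 24 h (SD 0.62, n = 3) was the widest of the 8 tested genes. Fabp5 rose at 72 h by 1.81 (SE 0.30, adjusted p = 0.000413) and at 24 h by 0.91 (SE 0.30, adjusted p = 0.0212). The call at 24 h was lost without serum replicate 3 (0.78, adjusted p = 0.0782), 24 h replicate 1 (0.68, adjusted p = 0.0879) or 24 h replicate 2 (0.78, adjusted p = 0.0790), and with the span trend removed (0.49, adjusted p = 0.0509).

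Cpt1a encodes the enzyme that joins long-chain fatty acids to carnitine, the controlled step of their entry into mitochondria. It had log2 values of 2.66, 2.58 and 2.86 in serum, 4.15, 4.16 and 4.38 at 6 h, 4.90, 5.14 and 5.50 at 24 h and 5.20, 4.85 and 5.12 at 72 h. Each group in 2i lay wholly above serum, and the 24 and 72 h groups overlapped. Cpt1a rose by 1.53 at 6 h (SE 0.16, adjusted p = 5.54e-05), by 2.48 at 24 h (adjusted p = 4.10e-07) and by 2.35 at 72 h (adjusted p = 3.57e-07). The step from 24 to 72 h was -0.12 (adjusted p = 0.551).

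Between neighbouring times in 2i, 5 of the 8 genes were called from 6 to 24 h, all of them higher, beside 59.4% of all genes (31.4% higher). These were Plin2, Plin3, Dgat1, Fabp3 and Cpt1a. Fabp5 changed by 0.64 from 6 to 24 h (adjusted p = 0.0866), and by 0.42 to 0.99 with a library left out. With the replicate block this change of Fabp5 was called (adjusted p = 0.0145). Groups did not overlap in 7 of the 8, beside 61.8% of all genes. From 24 to 72 h 5 were called, 3 higher and 2 lower, beside 31.6% (15.8% higher, 15.7% lower), and 5 did not overlap, beside 33.5%. Fabp5, Plin2 and Pnpla2 were higher at 72 h, and Plin3 and Dgat1 lower. The step of Fabp5, 0.91 (adjusted p = 0.0408), was lost without any 1 of 9 of the 12 libraries (adjusted p = 0.0511 to 0.106), with only these 2 groups in the fit (adjusted p = 0.141) and with no filter on low values (adjusted p = 0.0507). The step of Plin2 was lost with only these 2 groups (adjusted p = 0.0630). Changes at 24 h followed gene span over all genes, so each was also fitted with that trend removed, which moved the median of all genes at 24 h from 0.11 to 0.0043. The changes of Fabp3 and Cpt1a at 24 h were then 2.52 and 2.77, that of Pnpla2 was -0.93, and the step of Dgat1 from 6 to 24 h was no longer called (0.27, adjusted p = 0.108). Pnpla2, with a step of -0.30 from 6 to 24 h (adjusted p = 0.0638), was called once the span trend was removed (-0.69, adjusted p = 0.00925), which made 4 higher and 1 lower. It was also called without 24 h replicate 2 (-0.38, adjusted p = 0.0486) or 24 h replicate 3 (-0.40, adjusted p = 0.0186).

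Per length, the order in serum was Fabp3, Plin3, Pnpla2, Cpt1a, Fabp5, Dgat1, Plin2, Dgat2, Cidea and Cideb, from a mean log2 value of 5.60 down to -4.48. The ranges of Fabp5, Dgat1 and Plin2 overlapped between neighbours in that order, and those of the other neighbours did not. At 72 h the order was Fabp3, Plin3, Cpt1a, Cidea, Fabp5, Plin2, Pnpla2, Dgat1, Dgat2 and Cideb. Cidea had moved from place 9 to place 4, with a mean of 4.76 whose range overlapped those of Cpt1a above it and Fabp5 below it. Plin3 and Cpt1a, and Plin2 and Pnpla2, could not be separated by their ranges at 72 h either.

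The course of Cidea over the 12 libraries was set beside that of 1202 tested genes with group means at least 2 log2 units apart. The 5 with the highest Pearson r were Elovl7 (0.986), Epm2a (0.986), Tspan17 (0.983), A4galt (0.981) and Hes1 (0.980). These r values describe 12 libraries in 4 groups that share 1 course of treatment. The 5 were picked for likeness to the Cidea values that chose the set, so they are described with no test. Serum means of Elovl7 and Epm2a (-2.29) lay below 0, the filter value, which favours being higher in 2i. Elovl7 had a mean log2 value of -1.16 in serum, which went to 0.62, 0.92 and 1.53 after 6, 24 and 72 h. A4galt went from 1.89 to 3.82, 4.09 and 4.51 at the same times. Among the set itself r with Cidea was 0.92 for Cpt1a, 0.76 for Fabp3 and 0.74 for Fabp5, and between -0.26 and 0.57 for Plin2, Plin3, Dgat1, Dgat2 and Pnpla2.

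Other genes of the same pathways were taken from 6 lists that hold 100 gene symbols besides those of the 10, of which 97 are in the table and 73 were tested. At 6 h 17 of the 73 were called, 12 higher and 5 lower (23.3%, beside 15.6% of all genes). At 24 h 51 were called, 39 higher and 12 lower (69.9%, beside 63.3%), and at 72 h 57, with 46 higher and 11 lower (78.1%, beside 52.2%). Their median change was 0.13, 0.57 and 0.70 at the 3 times. The count at 6 h was 9 without serum replicate 1, serum replicate 2 or 6 h replicate 3, 10 without 6 h replicate 2 and 11 without 6 h replicate 1. With the replicate block it was 21, 16 higher and 5 lower, beside 20.9% of all genes. In 9 of the 73 no serum library passed the filter, so that these entered through 2i, where being higher was favoured, and 8 of them are among the 46 higher at 72 h. The other 64 had libraries above the filter in both serum and 72 h. Of these 64, 9 were higher and 5 lower at 6 h (21.9%, beside 13.3% of the 11067 such genes in all, with 7.20% higher and 6.14% lower). At 24 h 34 were higher and 12 lower (71.9%, beside 61.8%, with 32.4% higher and 29.4% lower), and at 72 h 38 higher and 11 lower (76.6%, beside 48.9%, with 23.3% higher and 25.6% lower). Their median change was 0.0888, 0.56 and 0.66, and that of the 11067 genes 0.00053, 0.0770 and -0.0174. With the replicate block 53 of the 73 were called at 24 h, beside 71.0% of all genes. The count of each list at 72 h is given over all its tested genes and again without those of the 9, whose changes are descriptions.

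The droplet coat and CIDE list differed from the others in the sign of its median at 72 h. Of its 8 tested genes 6 were called, beside 52.2% of all genes, 2 higher and 4 lower, with a median of -0.38. Rab18, a small GTPase of the droplet surface, rose by 1.38 and Aup1, a protein shared by droplets and the endoplasmic reticulum, by 0.83. Dffa, an inhibitor of apoptotic DNA cleavage that shares a CIDE domain, fell by 1.12, and Hsd17b11, a droplet-bound dehydrogenase, fell by 1.02. Cidec, the third CIDE gene, had at most 9 reads and went from a mean log2 value of -4.56 in serum to -2.30 at 72 h. Plin1 had at most 2 reads. Plin5, a perilipin with at most 36 reads, went from -0.34 to -3.60. Cidec, Plin1 and Plin5 were named after their values were seen and not tested.

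Of 15 tested genes of triglyceride and sterol ester synthesis, 11 were called at 72 h beside 52.2% of all genes, 8 higher and 3 lower, with a median of 0.49. Without Lpin2 and Soat2, which entered through 2i, 10 of 13 were called, 7 higher and 3 lower, beside 48.9% of the 11067 genes (23.3% higher, 25.6% lower), with a median of 0.49. Gpat2 and Agpat1, acyltransferases of the first steps, rose by 1.48 and 1.22. Gpam, another enzyme of the first step, fell by 0.97, and Soat1, which makes sterol esters, fell by 0.72.

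Of 9 tested genes of lipolysis 7 were called at 72 h beside 52.2% of all genes, 6 higher and 1 lower, with a median of 0.56. Without G0s2 and Mgll, which entered through 2i, 5 of 7 were called, 4 higher and 1 lower, beside the same 48.9%, and the median was 0.41. G0s2, an inhibitor of ATGL, had mean log2 values of -1.69, 0.25, 2.90 and 1.27 in serum and after 6, 24 and 72 h. Mgll, the lipase of monoglycerides, was at -1.78, -1.69, -1.64 and 0.13 in the same order and passed the filter through its 72 h libraries alone. Pnpla8, a phospholipase, fell by 0.76.

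Of 10 tested genes of uptake, binding and activation 9 were called at 72 h beside 52.2% of all genes, 6 higher and 3 lower, with a median of 0.93. Without Vldlr, which entered through 2i, 8 of 9 were called, 5 higher and 3 lower, beside 48.9%, and the median was 0.63. Vldlr, a lipoprotein receptor, went from a mean log2 value of -2.80 in serum to 0.37 at 72 h. Slc27a3, a fatty acid transport protein, rose by 1.95. Slc27a2, of the same transporter family, fell by 3.70, and Acsl5, an acyl-CoA synthetase, fell by 1.70. The range of this list was thus wider than its median shows.

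Of 22 tested genes of fatty acid oxidation 17 were called at 72 h beside 52.2% of all genes, all 17 higher, beside 25.7% of all genes, with a median of 0.83. Without Cpt1b and Ehhadh, which entered through 2i, 15 of 20 were called, all 15 higher, beside 48.9% of the 11067 genes (23.3% higher), with a median of 0.76 beside -0.0174. Cpt1b, the muscle form of the enzyme that Cpt1a encodes, had mean log2 values of -0.77, 0.20, 2.72 and 1.43 in serum and at the 3 times in 2i. Slc25a20, the carrier of acylcarnitine across the inner mitochondrial membrane, rose by 2.06 at 72 h, with 0.40 at 24 h (adjusted p = 0.117). Of 9 tested regulators of lipid use 7 were called at 72 h beside 52.2% of all genes, all 7 higher, with a median of 0.89. Without Cebpa and Prdm16, which entered through 2i, 5 of 7 were called, all 5 higher, beside 48.9% (23.3% higher), and the median was 0.70. Mlxipl, which encodes the sugar-responsive factor ChREBP, rose by 1.48. Cebpa, a factor of fat and liver cells, went from a mean log2 value of -1.04 in serum to 0.29 at 72 h.

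**Figure D3:**
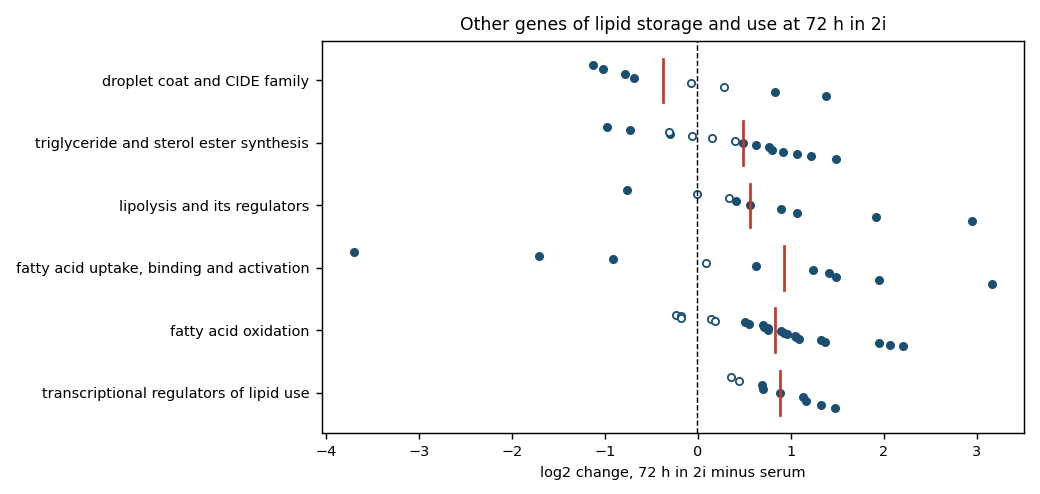
Log2 change at 72 h in 2i from serum (horizontal axis) of the 73 tested genes in 6 lists of lipid genes. Filled points passed an adjusted p under 0.05, open points did not, red lines are list medians and the dashed line is the median of all genes tested. Points of the oxidation list that passed lie to the right of 0, as do those of the regulators, and 9 of the 73 genes had no serum library above the filter.

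H3K9me2, a mark of repressed chromatin, was taken as bound over input reads summed over the bins of each gene and compared between groups relative to the median of all genes. Counts were low at most of the 10 genes, and only 5 (Cidea, Plin2, Dgat2, Fabp5 and Cpt1a) had at least 20 scaled reads over the body in every library. A minimum in every library leaves out genes that fell, so a second filter, a mean of 20 over the 6 bound libraries, was added after the data were seen and also admitted Fabp3 and Dgat1. Before the centring the median of all gene bodies went from -0.33 and -0.40 in serum to -0.45 and -0.45 at 24 h and to -0.91 and -0.99 in LT2i on the log2 scale. The changes reported here come on top of that shift. Total H3K9me2 per cell cannot be read from these values, which were scaled to total reads, and each group has 1 input, whose own error is not in the test.

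At 24 h limma called 0 of the 5 gene bodies, or 0 of the 7 under the second filter, and none of these had an unadjusted p under 0.05. Among all bodies 1 of 14986 was called (0.00667%) and 3066 had an unadjusted p under 0.05, and under the second filter 5 of 18596 were called (0.0269%). In LT2i 2 of the 5 were called, both lower, beside 63.1% of all bodies (27.1% lower). They were Plin2 and Cpt1a. Under the second filter 3 of 7 were called, all lower, beside 57.1% (21.4% lower), with Fabp3 as the addition. Fabp3 passed that filter through serum and 24 h, where its reads were higher, so its fall is described only. RNA in LT2i was not analysed here, so these changes have no expression value of the same state beside them.

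Cidea had little H3K9me2 over its body in all groups. Its bound over input ratio was 0.212 and 0.192 in serum, 0.177 and 0.186 at 24 h and 0.093 and 0.113 in LT2i, from 56 and 49, 33 and 36, and 23 and 24 reads. The serum ratio stood at percentile 9.67 of all genes with a mean of at least 20 scaled reads. Both LT2i libraries lay below the others, and those of 24 h slightly below serum. The change was -0.07 at 24 h (SE 0.17, adjusted p = 0.842) and -0.39 in LT2i (SE 0.17, adjusted p = 0.0801). In LT2i it was called without LT2i replicate 2 (-0.57, adjusted p = 0.0320), with eBayes without trend (adjusted p = 0.0463) and without the centring (-0.98, adjusted p = 0.00220). It was -0.25 under the second filter (adjusted p = 0.309), -0.13 at a minimum of 1 read (adjusted p = 0.647) and -0.21 without LT2i replicate 1 (adjusted p = 0.293). At 24 h, where Cidea RNA stood 4.76 log2 units above serum, a change of its H3K9me2 was thus not detectable at this depth. Over the 2 kb on each side of its start it had 15 and 11 reads in serum, 12 and 7 at 24 h and 2 and 3 in LT2i.

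**Figure D4:**
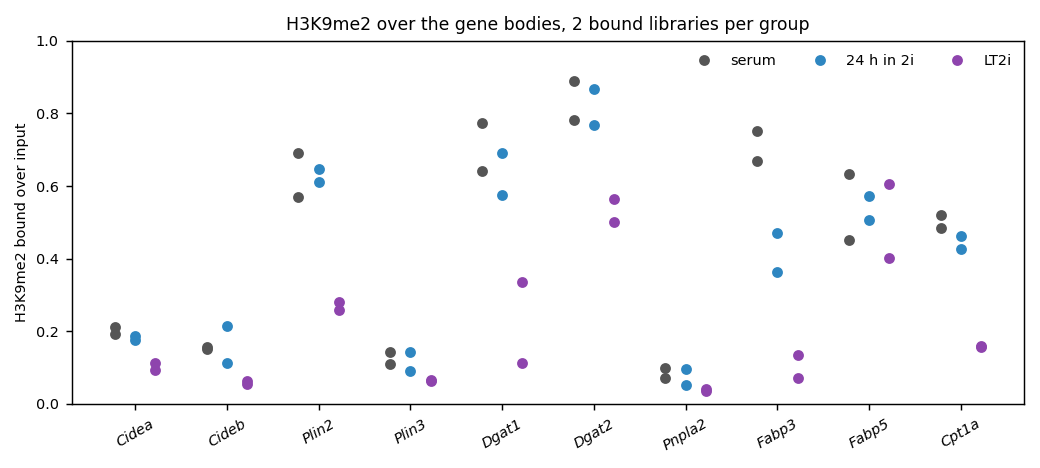
H3K9me2 bound over input (vertical axis, from 0) over each gene body in serum, at 24 h in 2i and in LT2i. Points are the 2 bound libraries of a group, each divided by the 1 input of that group. Cidea, Cideb, Plin3 and Pnpla2 lie low in all groups, and Fabp3 drops from 0.751 and 0.668 in serum to 0.134 and 0.071 in LT2i.

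Fabp3 had ratios of 0.751 and 0.668 in serum, 0.472 and 0.364 at 24 h and 0.134 and 0.071 in LT2i, from 63 and 54, 35 and 28, and 11 and 5 reads. The 3 groups did not overlap. Its change in LT2i was -2.13 (SE 0.29, adjusted p = 0.00211) under the second filter, and that at 24 h was -0.71 (SE 0.29, adjusted p = 0.285). Over its start, which includes the stretch printed for it, Fabp3 had 29 and 21 reads in serum and 4 and 2 in LT2i. It reached neither filter there, so these counts are described with no test.

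Cpt1a had ratios of 0.519 and 0.483 in serum, 0.426 and 0.462 at 24 h and 0.159 and 0.158 in LT2i, from 324 to 361 reads in serum and 85 to 99 in LT2i. Its change was -0.09 at 24 h (SE 0.11, adjusted p = 0.663) and -1.08 in LT2i (SE 0.11, adjusted p = 0.000754). The LT2i libraries lay far below the rest. Over its start Cpt1a had 1 to 4 bound reads in every library against inputs of 47 to 87, so little of the mark lay over the CG-rich start.

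Plin2 had ratios of 0.569 and 0.692 in serum, 0.610 and 0.647 at 24 h and 0.282 and 0.258 in LT2i. Its change was 0.08 at 24 h (SE 0.14, adjusted p = 0.767) and -0.63 in LT2i (SE 0.14, adjusted p = 0.00790), which was -0.37 and not called at a minimum of 1 read (adjusted p = 0.0989). Dgat1 had 0.773 and 0.642 in serum and 0.337 and 0.112 in LT2i, with the LT2i libraries far apart, and a change of -1.13 (SE 0.46, adjusted p = 0.0786) under the second filter.

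Dgat2 had the highest ratio of the 10 genes in serum, 0.890 and 0.781. Over its body the change relative to other genes in LT2i was not called (-0.06, SE 0.10, adjusted p = 0.600), while without the centring it was 0.65 lower. Fabp5 had 0.450 and 0.634 in serum and 0.401 and 0.606 in LT2i, with a change of 0.47 (SE 0.27, adjusted p = 0.170) that was called without LT2i replicate 1 (0.81, adjusted p = 0.0387). It was 0.13 without LT2i replicate 2 (adjusted p = 0.676), 0.19 without serum replicate 1 (adjusted p = 0.617) and -0.12 without the centring. These Fabp5 ratios, taken before the centring, overlapped between serum and LT2i. Cideb had 3 to 10 bound reads per library, Plin3 8 to 23 and Pnpla2 3 to 10, so no change could be read there.

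Over the 2 kb on each side of the start, 2 genes reached 20 scaled reads in every library, Dgat2 and Fabp5. At 24 h limma called 0 of these 2, with 0 at an unadjusted p under 0.05, beside 8.75% of all starts. In LT2i 1 was called, beside 36.4% (16.5% lower). Dgat2 fell by 0.94 (SE 0.27, adjusted p = 0.00353), a call that was lost with bound reads alone (-0.50, adjusted p = 0.159), at a minimum of 1 read (-0.39, adjusted p = 0.354), without serum replicate 1 (-0.71, adjusted p = 0.124) or LT2i replicate 2 (-0.71, adjusted p = 0.105). Under the second filter Plin2 was called as well (-0.999, SE 0.31), 2 of 3 beside 40.9% (18.4% lower). Plin2 had 11.5 and 17.9 scaled reads there in LT2i and passed that filter through serum and 24 h, where it was higher. Its fall over the start is therefore a description. The call of Plin2 was lost at a minimum of 1 read (-0.67, adjusted p = 0.143).

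**Figure D5:**
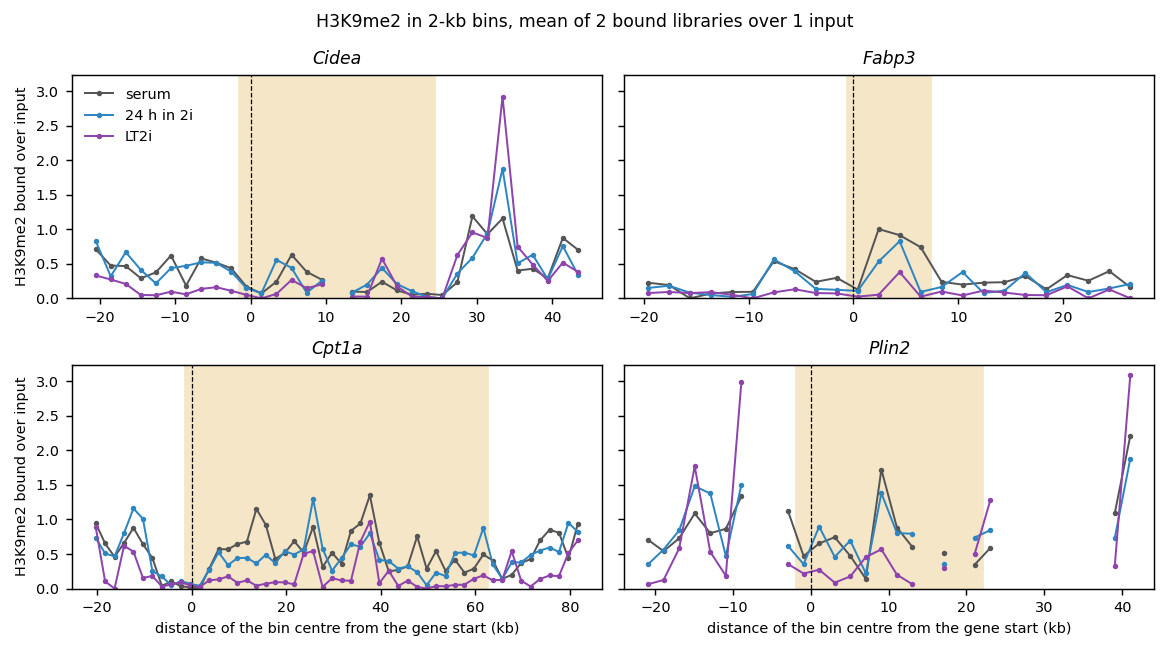
H3K9me2 bound over input (vertical axis, mean of 2 bound libraries over 1 input) in 2-kb bins against the distance of the bin centre from the gene start in kb, for Cidea, Fabp3, Cpt1a and Plin2. Shading marks bins that overlap the gene, the dashed line its start, and breaks in the lines bins not in the table. Over the bodies of Fabp3 and Cpt1a the LT2i line lies below the serum line in most bins, and at the start of Cpt1a all lines lie near 0.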

How the data were processed

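RNA-seq of E14 cells was made with the TruSeq RNA v2 kit. The authors deposited log2 values, which are reads per gene corrected for length and library depth and set to a common 75th percentile. The sources used here name no aligner or counter for them. TopHat2 2.0.11, Bowtie2, Trim Galore 0.3.5, Bismark 0.12.3 and build GRCm38 stand in the submitters' processing notes with no role. The deposited H3K9me2 values are log2 reads of each 2-kb bin, brought to the depth of the deepest library, with the inputs in columns of their own. Scaling to total reads removes a change of the mark over the whole genome. Bisulfite files, on NCBIM37, were not used here.

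Whole reads were recovered from the log2 values, and 99.9% of 208885 values above 0 reads lay within 0.02 of a whole number. Genes or bins without reads enter at 0.9 reads. Genes above a log2 value of 0 in at least 3 of 12 libraries were tested, 12306 in all, in 1 limma 3.58.1 fit (R 4.3.3) over the 4 groups, with a trended variance prior and Benjamini-Hochberg adjusted p under 0.05 over all genes. Adjusted p-values are two-sided and from limma throughout. Then H3K9me2 was summed over bins that overlap a gene body, or the 2 kb on each side of its start, divided by the input of the group, centred on the median of each library and fitted likewise for genes with at least 20 scaled reads in every library. In simulated data 172 of 200 changed genes were recovered among 12306 for 72 h against serum, and 159 of 200 among 14986 for gene bodies in LT2i.

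The genes and the lists were chosen with earlier results of these data known. Named genes are the 10, from each list the 2 largest rises and 2 largest falls at 72 h among those called, the 5 genes most like Cidea, and genes near or overlapping. Replicate numbers come from the labels. Same-numbered libraries deviated together between serum and 6 h (r = 0.281, 0.159 and 0.542) and between serum and 24 h (r = 0.27, 0.105 and 0.468), so blocked values are given there where they change a call. Alternatives were quantile normalisation, no filter, a pseudocount of 1, a minimum log2 change of 1, no trend, only the groups compared, removal of the trend with gene span, the block and leaving out each library. limma-voom on the recovered reads and the filter on mean H3K9me2 reads were chosen after seeing the data. Python 3.11.15, numpy 2.4.6, pandas 2.3.3 and matplotlib 3.10.9 were used for tables and figures.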

Additional observations from a re-analysis of the deposited data

Results flagged for a closer look

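The change from serum differed between times in 2i for 10 cases, by the limma test of the difference itself. These were 5 of 8 genes in each interval, beside 59.4% of all genes from 6 to 24 h and 31.6% from 24 to 72 h. The count from 6 to 24 h thus lies near the share of all genes. Between 6 and 24 h the log2 change increased by 2.46 for Fabp3, 0.95 for Cpt1a, 0.91 for Plin2, 0.85 for Plin3 and 0.51 for Dgat1. Between 24 and 72 h it increased by 0.91 for Fabp5, 0.74 for Pnpla2 and 0.69 for Plin2, and the differences of Dgat1 and Plin3 were -0.59 and -0.46. Plin2, Plin3 and Dgat1 thus differed in both intervals, Plin2 upward in both and the other two upward and then downward. Of these, the step of Dgat1 from 6 to 24 h was lost after removal of the trend with gene span, the steps of Plin2, Plin3 and Fabp5 from 24 to 72 h were lost when only those 2 groups were compared (adjusted p = 0.0630, 0.135 and 0.141), that of Plin3 also with quantile normalisation (adjusted p = 0.0513), and those of Plin3 and Fabp5 were lost without any 1 of 8 and 9 of the 12 libraries. The cause of these differences was not tested.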

How the results depend on the processing

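At 6 h the 1 called gene of the set became 2 with quantile normalisation, 4 with only the 2 groups compared, 3 with the span trend removed and 3 with the replicate block, and 1 to 2 when a library was left out. Over all 12306 genes the 1920 calls became 1942, 3585, 2249 and 2569 under the same 4 settings. The 17 lipid pathway genes called at 6 h became 5 with a minimum log2 change of 1, 28 with only the 2 groups compared, and 9 to 21 when a library was left out. The same minimum took the set from 6 to 2 at 24 h, from 5 to 1 between 6 and 24 h and from 5 to 0 between 24 and 72 h, and the lipid pathway genes to 24 at 24 h and 28 at 72 h, since it removes smaller changes. The share of all genes called was then 5.30% at 6 h, 27.5% at 24 h, 21.0% at 72 h, 22.05% from 6 to 24 h and 9.54% from 24 to 72 h. Between 24 and 72 h 2 genes of the set were called with only those groups, beside 12.9% of all genes, and 3 to 5 when a library was left out. For H3K9me2 in LT2i, 4 of the 5 gene bodies were called without centring, where the median change of all 14986 bodies was itself -0.52. In that limma fit 4 of the 5 and 10425 of all 14986 bodies had an unadjusted p under 0.05. Over starts 0 were called with bound reads alone and 0 to 1 when a library was left out. With the filter on mean reads 2 of 3 starts were called, beside 40.9% of all starts. Other causes of these moves were not tested.

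Some values changed sign. Dgat2 at 72 h was -0.0315 and Fabp3 between 24 and 72 h 0.13 with quantile normalisation. H3K9me2 over the body of Dgat2 at 24 h was -0.0189 with bound reads alone and -0.0307 without centring, and in LT2i 0.20 with a minimum of 1 read and 0.0800 with the filter on mean reads. Over the body of Fabp5 in LT2i it was -0.12 without centring. Over the start of Fabp5 it was -0.54 at 24 h with 5 kb on each side, and in LT2i 0.13 with bound reads alone and 0.30 with a minimum of 1 read. With a library left out, Dgat2 ran from -0.0837 to 0.0483 at 24 h, from -0.0712 to 0.16 at 72 h and from -0.0638 to 0.17 between them, and Cpt1a from -0.26 to 0.0357 between 24 and 72 h. H3K9me2 at 24 h ran from -0.0940 to 0.26 over the body of Plin2, -0.0370 to 0.14 over that of Dgat2, -0.19 to 0.38 over that of Fabp5 and -0.14 to 0.39 over the start of Fabp5, and in LT2i from -0.50 to 0.0221 over the start of Fabp5.

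Same-numbered libraries deviated together less evenly between other times. By replicate 1, 2 and 3, r was 0.051, 0.303 and 0.395 between serum and 72 h. It was 0.441, 0.0278 and 0.538 between 6 and 24 h, and -0.249, 0.577 and 0.813 between 24 and 72 h. For the ChIP libraries, which carry 2 numbers, r ran from -0.0172 to 0.175. In all, 8 of 12 RNA libraries correlated best on average with their own number. With the block the steps of Plin3 and Fabp5 from 24 to 72 h had adjusted limma p-values of 0.00181 and 0.00485. With the replicate block H3K9me2 over the body of Fabp5 in LT2i was called (0.47, adjusted p = 0.0389). Among the 10 genes it changed no other call than those of Plin2 and Fabp3 at 6 h, Dgat1 at 24 h and Fabp5 between 6 and 24 h (adjusted p = 0.0145). The lipid pathway genes called went from 17 to 21 at 6 h, from 51 to 53 at 24 h and from 57 to 58 at 72 h, beside 20.9%, 71.0% and 60.9% of all genes in that fit.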
